A study of Mus musculus with 11 samples.

Results

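The genes described here are 10 members of the antioxidant program that NRF2 controls: *Nfe2l2*, *Slc7a11*, *Gclc*, *Gclm*, *Gsr*, *Srxn1*, *Txnrd1*, *Prdx1*, *Hmox1* and *Nqo1*. They were picked by symbol, with earlier results of these data known. All 10 were among the 12932 genes of the RNA-seq table of mouse alveolar macrophages (AMs). All 10 also passed a filter of at least 1 CPM (a gene's reads as a share of its library, scaled to a fixed total and by TMM) in 3 or more libraries, which left 12889 genes for testing.

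NRF2, the product of *Nfe2l2*, is a transcription factor that KEAP1 marks for destruction until oxidants or electrophiles modify KEAP1. It then pairs with small MAF proteins on antioxidant response elements, which BACH1 occupies in the resting state, and raises genes that import cystine, build and recycle glutathione, reduce thioredoxin and peroxiredoxins, degrade heme and reduce quinones. Much of its output is set after transcription, so the mRNA of *Nfe2l2* is not a measure of NRF2 activity. AMs live at the air surface, handle surfactant lipids and oxidants, and use these enzymes in the steady state.

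The study asked what the retinoid X receptors RXRα and RXRβ do in AMs. All mice were 9 wk old, on the C57BL/6J background, and carried floxed *Rxra* and *Rxrb* alleles (Rxrab fl/fl), and the paper used males and females. Control mice lacked Cre (label CD11cCre- Rxrabfl/fl) and were littermates, and RXR-deficient mice were CD11cCre+ Rxrabfl/fl, in which *Cd11c* sequences drive Cre in AMs and in other CD11c-expressing cells such as dendritic cells. Mature AMs (mAMs) were sorted as CD11b-/SiglecF+ and immature AMs (ImmAMs) as CD11b+/SiglecF+, at 40000 cells per library. The groups are control mAMs (mAM_WT, replicates 1 to 4), RXR-deficient mAMs (mAM_KO, replicates 1 to 4) and RXR-deficient ImmAMs (Imm_KO, replicates 2 to 4). No ImmAMs of control mice were sequenced, so genotype and maturity cannot be told apart wherever ImmAMs are set against control mAMs. The paper's legends count 3 mice for RXR-deficient mAMs, and replicate 4 of that group therefore entered the comparisons only as an alternative. Its values for the 10 genes are printed beside the others.

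The libraries held 16659960 to 37873532 counted reads. *Rxra* was at 310 to 379.5 CPM in control mAMs, 334 to 419 CPM in RXR-deficient mAMs and 283 to 305 CPM in ImmAMs, and *Rxrb* at 51.4 to 72.1, 39.3 to 55.3 and 31.9 to 35.2 CPM. The table counts reads over whole genes, the remaining exons included, so these values do not show whether the floxed exons were lost. From separate mRNA measurements, the paper reports that both genes were deleted efficiently in mAMs and in ImmAMs. All 11 AM markers on a list fixed for this purpose were measured, and their summed level was 21784 to 27995 CPM in control mAMs, 26205 to 32671 CPM in RXR-deficient mAMs and 24921 to 26727 CPM in ImmAMs. Most of this sum was *Chil3* (13182 to 18297, 17338 to 23887 and 20272 to 21939 CPM in the same order). Of the 11 markers, 8 were lower in every ImmAM library than in every control mAM library, 1 was higher and 2 overlapped. Over all genes tested, 51.3% did not overlap between ImmAMs and control mAMs, in either direction. The summed level therefore does not show that the markers were retained. Named after their values were seen, *Siglecf*, which encodes the sorting marker itself, was at 244 to 264 CPM in control mAMs and 19.3 to 19.7 CPM in ImmAMs, *Krt79* at 594 to 759 and 5.96 to 7.01 CPM, and *Marco*, a scavenger receptor, at 309.99 to 377 and 10.9 to 13.8 CPM. The 1 that was higher was *Chil3*. The 2 that overlapped were *Pparg* (174.2 to 219.7 and 215.3 to 219.5 CPM) and *Plet1* (1086 to 1318 and 1289 to 1345 CPM). A list of monocyte and interstitial macrophage markers, of which 8 of 12 were measured, summed to 396 to 480, 432 to 513 and 1470 to 1568 CPM in the same order of groups. Most of this sum was *Csf1r* (375 to 458, 409 to 488 and 1023 to 1109 CPM). Of the 8, 7 were higher in every ImmAM library than in every control mAM library and 1 overlapped, beside the same 51.3% of all genes. *C1qa*, *C1qb* and *F13a1* were near 0 in control mAMs, and at 24.5 to 29.8, 45.8 to 49.7 and 1.55 to 2.12 CPM in ImmAMs. Neutrophil markers, with 5 of 8 measured, summed to 30.7 to 39.5, 24.6 to 40.6 and 51.7 to 61.9 CPM. The part of these marker differences in the results for ImmAMs was not tested. *Xist* (55.5 to 539 CPM) and *Ddx3y* (39.7 to 107 CPM) were both read in all 11 libraries, so each library held RNA of female and male cells in varying proportion, and the part of this in the results was not tested.

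Promoter windows from 250 bases before to 50 bases after a transcription start were given by RefSeq (GRCm38.p6) for 7 of the 10 genes, as 9 windows, and not used here for *Gclc*, *Hmox1* and *Gsr*. The core of the antioxidant response element, TGACNNNGC on either strand, was found in windows of 5 of these 7 genes. Counted by window, it was in 5 of the 9, beside 12.4% of all 32851 windows. The 4 matches that lie upstream of a start are shown because they are the letters NRF2 is known to read, each with 10 bases on either side, written 5′ to 3′ along the strand of the match and with the core in capitals.
Nfe2l2, 240 bases upstream, chr2:75704885-75704913, minus strand: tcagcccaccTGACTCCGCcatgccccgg
Gclm, 134 bases upstream, chr3:122245413-122245441, minus strand: tcgtgagagtTGACGGTGCgcccgggagc
Prdx1, 133 bases upstream, chr4:116685456-116685484, minus strand: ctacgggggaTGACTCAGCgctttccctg
Txnrd1, 92 bases upstream of the second of 3 starts, chr10:82859104-82859132, minus strand: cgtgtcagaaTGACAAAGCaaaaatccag

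The match in *Srxn1* began 28 bases past the start and is not printed. The windows of *Slc7a11* and *Nqo1* held no match, which says only that these letters are not within these windows. A second motif, the core of the CEBP-ATF response element that ATF4 reads in amino acid shortage (TGATGNAA on either strand), was searched after the expression values had been seen. It was found in 3.97% of all windows and, among the 7 genes, only in *Slc7a11*, as a pair of neighbouring matches. They are shown because *Slc7a11* was the one member to pass the test between the groups of mAMs. The core is in capitals, and the printed runs share bases on opposite strands.
Slc7a11, 66 bases upstream, chr3:50443662-50443689, minus strand: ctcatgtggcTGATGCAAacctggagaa
Slc7a11, 47 bases upstream, chr3:50443643-50443670, plus strand: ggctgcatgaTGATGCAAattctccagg

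In RXR-deficient mAMs, 1 of the 10 genes passed the test against control mAMs (limma, p-adj under 0.05), *Slc7a11*, which was higher. Over all genes tested in this comparison, 4.84% passed, with 2.25% of all genes higher and 2.59% lower, and with all 11 libraries in the fit 2.61% passed. In ImmAMs, 6 of the 10 passed against control mAMs, with *Nqo1*, *Hmox1*, *Prdx1* and *Txnrd1* lower and *Slc7a11* and *Nfe2l2* higher. Of all genes, 48.1% passed there, with 22.8% higher and 25.3% lower, so a share of 6 in 10 is close to that of the table. Against RXR-deficient mAMs, 6 of the 10 also passed, *Nqo1*, *Hmox1*, *Prdx1*, *Txnrd1* and *Srxn1* as lower and *Slc7a11* as higher, where 37.9% of all genes passed, with 17.7% higher and 20.2% lower. The number of members whose libraries did not overlap between the groups was 1, 6 and 9 in these 3 comparisons, in which 20.1%, 51.3% and 51.2% of all genes did not overlap. The median log2 fold change of the members was 0.07, −0.13 and −0.21, and that of all genes was −0.00188, −0.00254 and −0.00534. Both comparisons with control mAMs share the same control libraries, and both comparisons of ImmAMs share the ImmAM libraries. In these bulk samples, less mRNA per cell and fewer cells that express a gene cannot be told apart.

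**Figure D1:**
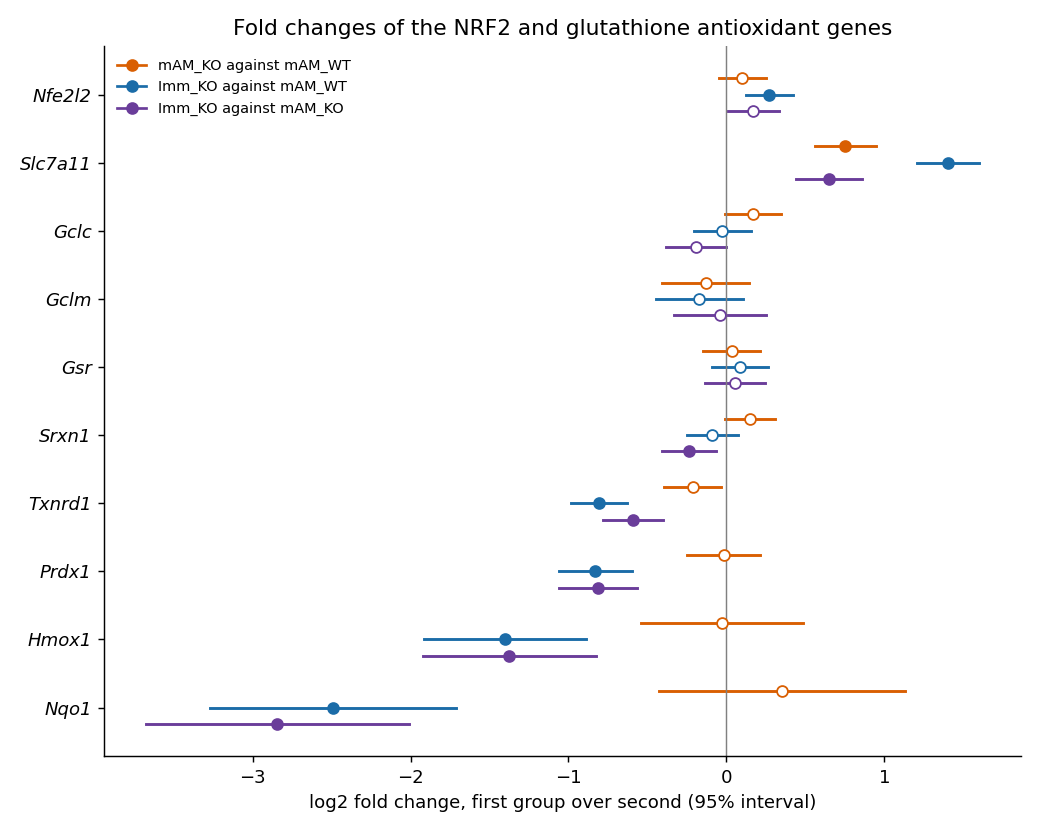
Log2 fold change (x axis) of the 10 genes (y axis) in the 3 comparisons, each with its 95% interval from limma; filled points passed p-adj under 0.05 and open points did not. *Slc7a11* lies to the right of 0 in all 3 comparisons, *Nqo1*, *Hmox1*, *Prdx1* and *Txnrd1* lie far to the left for ImmAMs, and the intervals of *Gclm* and *Gsr* cross 0 in all 3.

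*Nfe2l2* (ENSMUSG00000015839, GRCm38 chr2:75675513-75704641, minus strand), which encodes NRF2, was at 204, 207, 212 and 192 CPM in control mAMs. RXR-deficient mAMs had 199.7, 227 and 230 CPM, with 211 CPM in replicate 4, and ImmAMs had 248, 234 and 257 CPM. The 2 groups of mAMs overlapped, while every ImmAM library was above every mAM library. *Nfe2l2* rose by 0.27 on the log2 scale in ImmAMs against control mAMs (SE 0.0685, p-adj = 0.00536), a 1.21-fold difference, and all 10 fits that left out 1 library called it. The difference between ImmAMs and RXR-deficient mAMs was 0.17 (SE 0.0732, p-adj = 0.0832), and that between the groups of mAMs was 0.10 (SE 0.0685, p-adj = 0.394), with a 95% interval of −0.05 to 0.25.

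*Slc7a11* (ENSMUSG00000027737, chr3:49892526-50443614, minus strand) encodes xCT, the cystine/glutamate antiporter that brings in the cystine for glutathione. It was the only member to pass between the groups of mAMs. It was at 64.5, 58.5, 48.2 and 54.4 CPM in control mAMs. RXR-deficient mAMs had 97.3, 90.8 and 95.7 CPM, and replicate 4, which the test did not use, had 72.9 CPM. ImmAMs had 155, 143 and 147 CPM. The 3 groups thus formed separate steps with no overlap, replicate 4 included, although that library lay nearer to the controls than the other RXR-deficient mAMs did. The means were 56.4 ± 6.86 (SD, n = 4), 94.6 ± 3.39 (n = 3) and 149 ± 6.08 CPM (n = 3). *Slc7a11* was 1.69-fold higher in RXR-deficient than in control mAMs (log2 0.75, SE 0.0897, 95% interval 0.56 to 0.95, p-adj = 0.00129), and 0.66 on the log2 scale with all 11 libraries (p-adj = 0.00438). In ImmAMs it was 2.65-fold higher than in control mAMs (log2 1.40, p-adj = 4.89e-08) and 1.57-fold higher than in RXR-deficient mAMs (log2 0.65, p-adj = 0.00015). All 3 calls held in each of the 10 fits that left out 1 library, and in all 13 other alternatives. *Slc7a11* is the gene whose promoter window held the pair of TGATGCAA matches printed above. That motif was searched after these values had been seen, and any part of the matches in these levels was not tested. xCT works only with the heavy chain 4F2hc, encoded by *Slc3a2*, which is named here for that reason and after its values were seen. *Slc3a2* was at 133 to 149 CPM in control mAMs, 114 to 129 CPM in RXR-deficient mAMs and 179 to 199 CPM in ImmAMs. It was higher in ImmAMs than in control mAMs (log2 0.40, SE 0.07, p-adj = 0.000381) and than in RXR-deficient mAMs (log2 0.64, SE 0.0748, p-adj = 2.08e-05). Between the groups of mAMs its log2 difference was −0.24 (p-adj = 0.0698), opposite in sign to that of *Slc7a11*, and replicate 4 of RXR-deficient mAMs stood apart at 165 CPM.

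Neither subunit of glutamate-cysteine ligase passed in any comparison. *Gclc* (ENSMUSG00000032350, chr9:77754535-77794485, plus strand), the catalytic subunit and the rate-limiting step of glutathione synthesis, was at 46.5 to 53.0 CPM in control mAMs, 52.4 to 59.6 CPM in RXR-deficient mAMs (47.7 CPM in replicate 4) and 45.7 to 50.9 CPM in ImmAMs. Its differences were 0.17 (SE 0.0825, p-adj = 0.24) for RXR-deficient against control mAMs, −0.03 (SE 0.0825, p-adj = 0.821) for ImmAMs against control mAMs and −0.19 (SE 0.0882, p-adj = 0.103) for ImmAMs against RXR-deficient mAMs. In this last comparison the libraries did not overlap until replicate 4 was added. *Gclm* (ENSMUSG00000028124, chr3:122245557-122270732, plus strand), the modifier subunit, was more variable, with 81.0, 106, 81.8 and 105 CPM in control mAMs, 75.9, 91.7 and 87.0 CPM in RXR-deficient mAMs, 124 CPM in replicate 4 and 91.3, 69.1 and 88.5 CPM in ImmAMs. All groups overlapped, and its differences ranged from −0.17 to −0.04 with SEs of 0.126 to 0.135. Of the 60-base windows of *Gclm*, 3.43% also occur in other genes, and its exons overlap *Gm6061* on the same strand and *Gm17494* on the opposite strand, so some of its reads are uncertain.

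*Gsr* (ENSMUSG00000031584, chr8:33652523-33698163, plus strand), the glutathione reductase that turns the oxidized dimer back into glutathione with NADPH, had log2 differences of 0.03, 0.09 and 0.05 in the 3 comparisons, none of which passed. It was at 49.9 to 62.1 CPM in control mAMs, 54.1 to 56.1 CPM in RXR-deficient mAMs (62.7 CPM in replicate 4) and 56.2 to 59.3 CPM in ImmAMs. The 95% intervals of these differences were −0.14 to 0.21 for RXR-deficient against control mAMs, −0.09 to 0.26 for ImmAMs against control mAMs and −0.14 to 0.24 for ImmAMs against RXR-deficient mAMs. *Srxn1* (ENSMUSG00000032802, chr2:152105516-152111376, plus strand), the sulfiredoxin that restores overoxidized peroxiredoxins, was at 51.0 to 56.8 CPM in control mAMs, 56.4, 62.1 and 58.2 CPM in RXR-deficient mAMs (56.7 CPM in replicate 4) and 51.8, 47.6 and 50.7 CPM in ImmAMs. ImmAMs lay below every RXR-deficient mAM library, a log2 difference of −0.24 (SE 0.0785, p-adj = 0.0305). That call was lost without ImmAM replicate 3 (p-adj = 0.113), without ImmAM replicate 4 (p-adj = 0.0631), without RXR-deficient mAM replicate 2 (p-adj = 0.107) and without RXR-deficient mAM replicate 3 (p-adj = 0.0562). Against control mAMs, *Srxn1* did not pass in RXR-deficient mAMs (0.15, SE 0.0734, p-adj = 0.245) or in ImmAMs (−0.09, SE 0.0734, p-adj = 0.347).

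Of the thioredoxin branch, *Txnrd1* and *Prdx1* were lower in ImmAMs than in both groups of mAMs. *Txnrd1* (ENSMUSG00000020250, chr10:82833951-82897712, plus strand), the cytosolic selenoenzyme that reduces thioredoxin, was at 222, 222, 231 and 211 CPM in control mAMs. RXR-deficient mAMs had 195, 211 and 169 CPM, with 192 CPM in replicate 4, and ImmAMs had 133, 132 and 115 CPM. ImmAMs were below all mAMs, and RXR-deficient mAMs met the controls only at their highest library. *Txnrd1* was 1.75-fold lower in ImmAMs than in control mAMs (log2 −0.81, SE 0.0821, p-adj = 3.81e-06) and 1.51-fold lower than in RXR-deficient mAMs (log2 −0.59, SE 0.0877, p-adj = 0.000157). Between the groups of mAMs its difference of −0.21 had an unadjusted p of 0.0219 and did not pass over all genes (SE 0.0821, limma p-adj = 0.137).

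*Prdx1* (ENSMUSG00000028691, chr4:116685544-116700822, plus strand), a thioredoxin-dependent peroxidase, was at 880, 919, 1019.7 and 742 CPM in control mAMs. RXR-deficient mAMs had 834, 993 and 807 CPM, with 845 CPM in replicate 4, and ImmAMs had 501, 456 and 539 CPM. The 2 groups of mAMs overlapped throughout their range, and every ImmAM library was below them. *Prdx1* was 1.78-fold lower in ImmAMs than in control mAMs (log2 −0.83, SE 0.107, p-adj = 3.19e-05) and 1.76-fold lower than in RXR-deficient mAMs (log2 −0.81, SE 0.114, p-adj = 0.000101). Its difference between the groups of mAMs was −0.02 with a 95% interval of −0.25 to 0.21. Other genes share 6.13% of its 60-base windows.

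*Hmox1* (ENSMUSG00000005413, chr8:75093621-75100589, plus strand) encodes heme oxygenase 1, which opens heme to biliverdin, iron and carbon monoxide, and BACH1 is its best known repressor. Control mAMs had 222, 293, 194 and 351 CPM. RXR-deficient mAMs had 214, 405 and 187 CPM, with 311 CPM in replicate 4. ImmAMs had 97.8, 97.8 and 97.1 CPM. The mAMs of both genotypes scattered over the same range, and ImmAMs lay together below all of them. Its SD was 26.7% of the mean in control mAMs, 44.2% in RXR-deficient mAMs and 0.396% in ImmAMs. *Hmox1* was 2.65-fold lower in ImmAMs than in control mAMs (log2 −1.40, SE 0.237, p-adj = 0.000311) and 2.59-fold lower than in RXR-deficient mAMs (log2 −1.38, SE 0.253, p-adj = 0.000856). Between the groups of mAMs the log2 difference was −0.03 with a wide 95% interval of −0.54 to 0.48, so that a change within these bounds was not detectable with these libraries.

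*Nqo1* (ENSMUSG00000003849, chr8:107388225-107403206, minus strand), the quinone reductase often used as a readout of NRF2, was the lowest member. It was at 1.84, 2.39, 2.80 and 2.58 CPM in control mAMs, from 52 to 74 reads per library. RXR-deficient mAMs had 2.89, 3.59 and 2.69 CPM, with 4.15 CPM in replicate 4, and ImmAMs had 0.387, 0.673 and 0.289 CPM, which are 6, 14 and 5 reads. ImmAMs were below all mAMs, and the groups of mAMs overlapped. *Nqo1* was 5.62-fold lower in ImmAMs than in control mAMs (log2 −2.49, SE 0.359, p-adj = 8.53e-05) and 7.18-fold lower than in RXR-deficient mAMs (log2 −2.84, SE 0.384, p-adj = 7.24e-05). The size of these falls depends on what is added before the logarithm, since so few reads lie behind the ImmAM values. With 1 CPM added, the *Nqo1* differences were −1.23 and −1.49, still past the threshold, beside −1.39 and −1.37 for *Hmox1*. The difference between the groups of mAMs was 0.35 (SE 0.359, p-adj = 0.583).

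**Figure D2:**
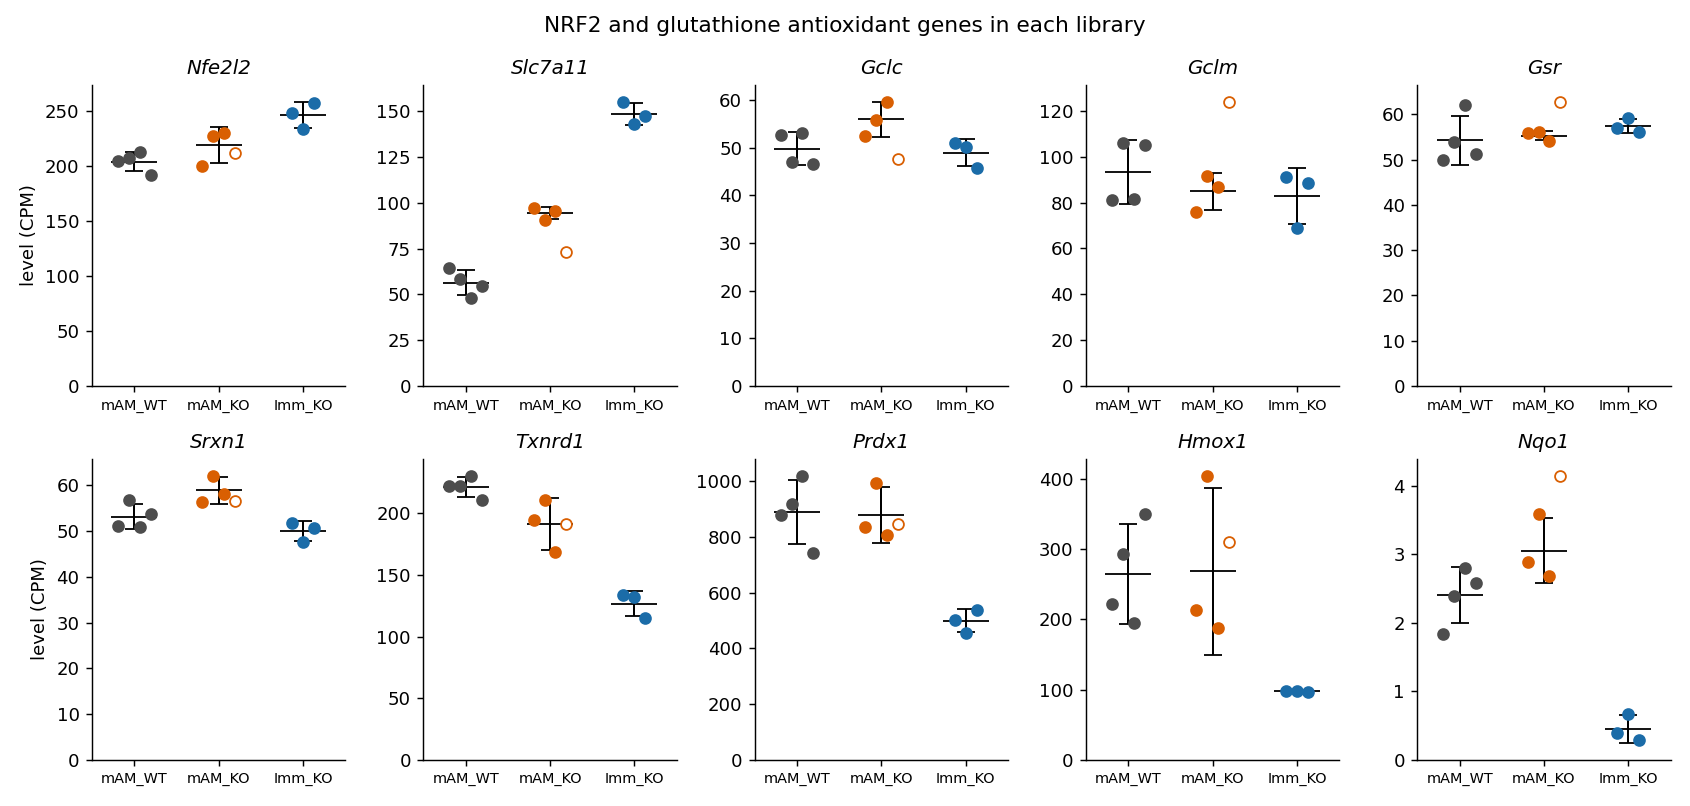
Level in CPM (y axis, linear from 0) of each gene in every library of control mAMs (mAM_WT), RXR-deficient mAMs (mAM_KO) and RXR-deficient ImmAMs (Imm_KO); bars are the mean and SD, and the open point is RXR-deficient mAM replicate 4, which is not in the mean. *Slc7a11* climbs over the 3 groups without overlap, the ImmAM points of *Txnrd1*, *Prdx1*, *Hmox1* and *Nqo1* lie below all mAM points, and *Gclm* and *Gsr* overlap in all groups but for *Gsr* in ImmAMs against the 3 RXR-deficient mAM libraries of the test.

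Per length of the longest coding transcript, *Prdx1* was the highest member in control mAMs at 388 CPM per kilobase, followed by *Hmox1* (169), *Nfe2l2* (82.4) and *Txnrd1* (61.1). *Gsr* (20.3), *Srxn1* (18.9), *Gclm* (16.7) and *Gclc* (14.6) formed a middle group in which each level was within 1 SD of a neighbour, and *Slc7a11* (6.12) and *Nqo1* (1.55) were lowest. In RXR-deficient mAMs the first 4 places were the same, and *Slc7a11* reached 10.3 CPM per kilobase. In ImmAMs *Prdx1* still led at 217 CPM per kilobase, *Nfe2l2* (99.5) stood above *Hmox1* (62.2), and *Slc7a11* (16.1) lay among *Gclm* (14.8), *Gclc* (14.3) and *Srxn1* (17.8). No test was run on levels between genes, and the lengths in use in these cells were not measured.

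**Figure D3:**
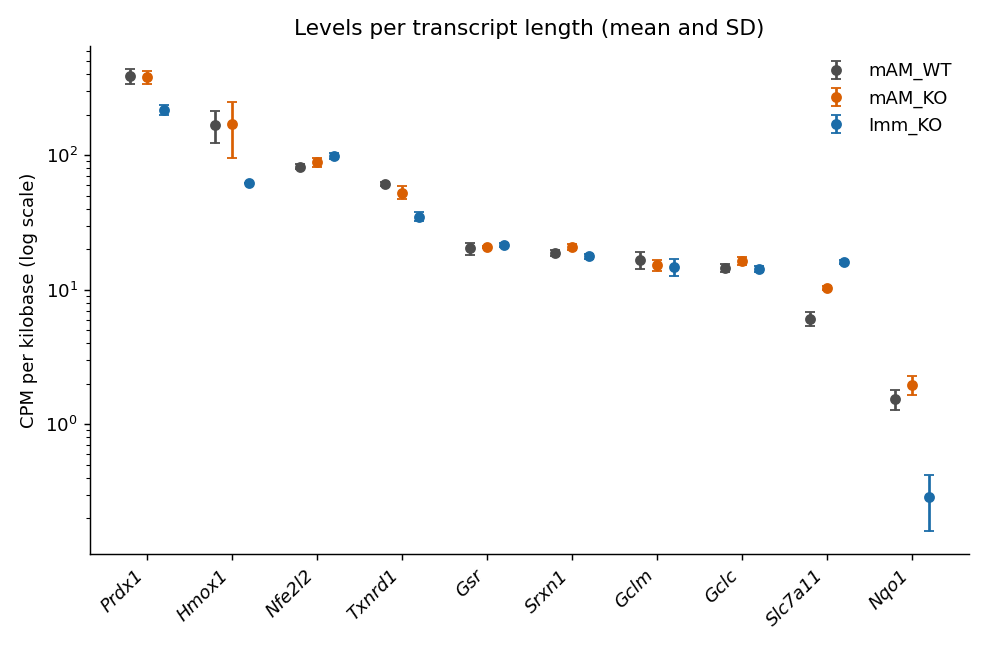
Mean level per kilobase of the longest coding transcript (y axis, log scale) of the 10 genes (x axis, in the order of control mAMs), with the SD as bars, in control mAMs (mAM_WT, n = 4), RXR-deficient mAMs (mAM_KO, n = 3) and ImmAMs (Imm_KO, n = 3). *Prdx1* is the highest in each group, *Nqo1* is the lowest, and *Slc7a11* is the member whose ImmAM point stands clearly above its mAM points.

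Of 107 further genes listed for NRF2 control, glutathione, thioredoxin, NADPH, heme, detoxification and the phagocyte oxidase, 92 were tested. In RXR-deficient against control mAMs, 6 passed, 1 as higher and 5 as lower, a share of 6.52% beside 4.84% of all genes. *Nqo2*, a quinone reductase that resembles *Nqo1*, was the one that was higher, at 42.8 to 50.7 CPM against 27.6 to 37.2 CPM (log2 0.51, SE 0.116, p-adj = 0.0311). *Maff*, a small MAF partner of NRF2, was lower at 20.2 to 35.0 against 38.2 to 46.5 CPM (log2 −0.66, SE 0.153, p-adj = 0.0329). Also lower were *Glrx5*, a mitochondrial glutaredoxin of iron-sulfur cluster assembly (log2 −0.61, p-adj = 0.016), *Gpx1*, the abundant glutathione peroxidase (−0.40, p-adj = 0.0328), *Cyba*, a membrane subunit of the phagocyte NADPH oxidase (−0.37, p-adj = 0.0215), and *Tkt*, transketolase (−0.29, p-adj = 0.0253). *Tkt* falls outside the rule for naming genes and is named because the count is small. Replicate 4 of the RXR-deficient mAMs, which did not enter this fit, was above every control library in *Glrx5* (32.3 CPM), *Cyba* (599 CPM) and *Nqo2* (38.9 CPM), within the control range in *Gpx1* (590 CPM) and *Tkt* (536 CPM), and below it in *Maff* (35.8 CPM). With all 11 libraries 0 of the 92 passed in limma, where 18 had an unadjusted p under 0.05. Leaving out 1 library moved the count from 6 to 0 (RXR-deficient mAM replicate 3, 16 with an unadjusted p under 0.05), to 2 (RXR-deficient mAM replicate 1 or control replicate 2), to 3 (control replicate 4), to 12 (control replicate 1) or to 13 (RXR-deficient mAM replicate 2).

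The genes named whatever they did include the sensor, a repressor and a partner of NRF2. Between the groups of mAMs, *Keap1* had a log2 difference of −0.29 (p-adj = 0.124), *Bach1* 0.02 (p-adj = 0.861), *Mafg* 0.15 (p-adj = 0.498), *Gss*, the second enzyme of glutathione synthesis, −0.23 (p-adj = 0.213), *Gpx4*, which reduces lipid peroxides, −0.32 (p-adj = 0.116), and *Cybb*, the catalytic subunit of the phagocyte oxidase, 0.06 (p-adj = 0.807). None of these 6 passed, which does not show that they were equal.

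In ImmAMs against control mAMs, 55 of the 92 genes passed, 21 as higher and 34 as lower (59.8%, beside 48.1% of all genes), and their median log2 difference was −0.11. Of the 10 NRF2 control genes, 2 were higher and 2 lower, where 22.8% of all genes were higher and 25.3% lower. Among these regulators *Maff* was lower, at 9.57 to 10.9 against 38.2 to 46.5 CPM (log2 −2.03, SE 0.153, p-adj = 2.25e-07), while *Mafg* was higher, at 142 to 153 against 60.5 to 90.3 CPM (log2 1.07, SE 0.126, p-adj = 1.5e-05). *Sqstm1*, named after its values were seen, was at 354 to 363 against 501 to 591 CPM. *Bach2*, a relative of *Bach1* known mainly from lymphocytes, was higher at 8.91 to 12.9 against 1.35 to 2.51 CPM (log2 2.76, SE 0.354, p-adj = 3.13e-05). *Keap1* (−0.14, p-adj = 0.305) and *Bach1* (−0.01, p-adj = 0.929) did not pass.

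The genes listed for NADPH supply, on which *Gsr* and *Txnrd1* depend, had the lowest median of the 9 lists in this comparison. Of 8 genes, 6 were lower in ImmAMs than in control mAMs and 0 were higher, where 25.3% of all genes were lower and 22.8% higher. The median log2 difference of the 8 was −0.69, beside −0.00254 over all genes, and the list was singled out by these values. *Taldo1*, transaldolase of the pentose phosphate pathway, was at 247 to 264 against 566 to 654 CPM (log2 −1.24, SE 0.0804, p-adj = 5.41e-08). Of the others, named after their values were seen, *G6pdx*, the entry enzyme of that pathway, was at 120.3 to 125 against 191 to 214 CPM (log2 −0.72, p-adj = 5.23e-07), and *Idh1*, cytosolic isocitrate dehydrogenase, was at 212 to 228 against 331 to 433 CPM (log2 −0.86, p-adj = 5.07e-06). Against RXR-deficient mAMs, 5 of the 8 were lower and 1, *Tkt*, named because it was the one exception, was higher (log2 0.30, SE 0.0668, p-adj = 0.00333). Of all genes, 20.2% were lower and 17.7% higher in that comparison. Between the groups of mAMs, without replicate 4, this list also had the lowest median of the 9, −0.26 beside −0.00188 over all genes. There, 1 of the 8 was lower and 0 were higher, beside 2.59% and 2.25% of all genes. The libraries of 6 of the 8 did not overlap between the groups of mAMs, beside 20.1% of all genes.

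Of 15 glutathione peroxidases and transferases, 5 were higher and 5 lower in ImmAMs than in control mAMs, where 22.8% of all genes were higher and 25.3% lower. *Gpx3*, a secreted peroxidase, was higher at 15.2 to 21.8 against 1.67 to 2.07 CPM (log2 3.28, SE 0.277, p-adj = 6.67e-07). *Gsto1*, an omega class transferase, was lower at 62.3 to 75.8 against 161 to 169.7 CPM (log2 −1.26, SE 0.0781, p-adj = 3.67e-08), and *Gpx4* was lower by a smaller step (−0.48, SE 0.114, p-adj = 0.00359). Of the 7 measured genes of glutathione supply, 2 were higher and 3 lower, and *Anpep*, a surface aminopeptidase that also cleaves the cysteinylglycine left by glutathione breakdown, had the largest rise of all 92, from 16.4 to 22.7 CPM in control mAMs to 318 to 338 CPM in ImmAMs (log2 4.13, SE 0.13, p-adj = 1.11e-10). *Anpep* is also carried by several myeloid cell types, and the part of cell type in its rise was not tested. *Gss* did not pass (−0.01, p-adj = 0.93).

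The counts of the other lists stand beside 25.3% of all genes lower and 22.8% higher in ImmAMs than in control mAMs. Of 21 thioredoxin system genes, 8 were lower and 5 higher. Of 3 superoxide dismutases and catalase, 1 was lower (*Cat*, named because it was the one that passed) and none was higher. Of the 7 genes of heme breakdown and ferritin 3 were lower and 1 higher, and *Blvra*, the biliverdin reductase that acts after heme oxygenase, was at 50.6 to 55.9 against 146 to 172 CPM (log2 −1.59, SE 0.0839, p-adj = 9.08e-09). In detoxification and export 4 of 14 were higher and 3 lower, and *Ephx1*, microsomal epoxide hydrolase, was at 98.8 to 102 against 8.62 to 14.9 CPM (log2 3.09, SE 0.159, p-adj = 7.5e-09). Of the 7 phagocyte oxidase genes 2 were higher and 3 lower, and *Cybb* did not pass (−0.11, p-adj = 0.456), at 1969 to 2189 against 1840 to 2756 CPM.

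**Figure D4:**
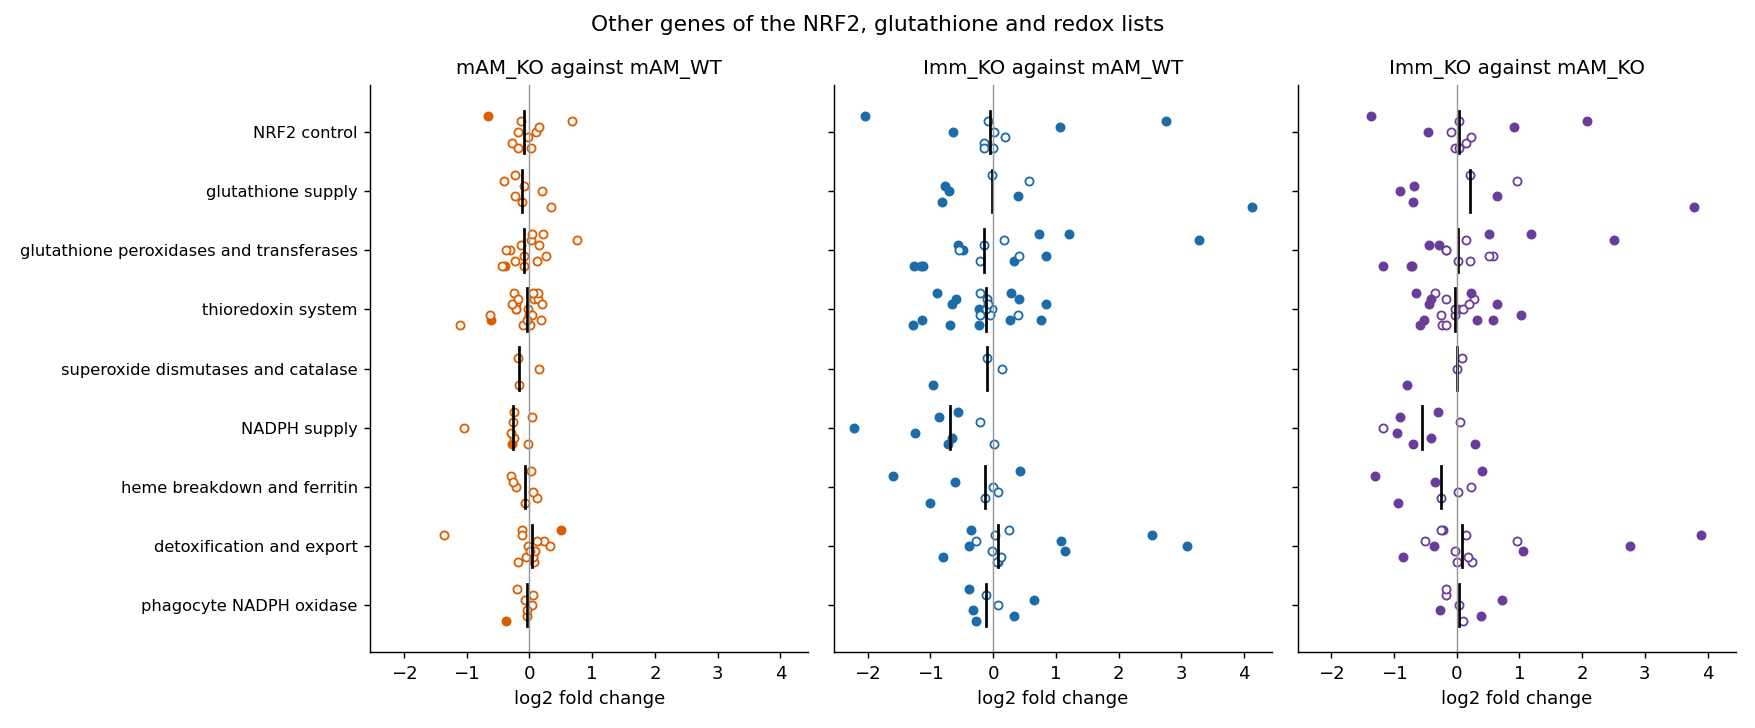
Log2 fold change (x axis) of each tested gene of 9 lists (y axis) in the 3 comparisons, 1 panel each; filled points passed p-adj under 0.05, open points did not, and the black bar is the median of the list. The points spread most for ImmAMs, on both sides of 0. The NADPH supply list has the lowest median in each panel, for ImmAMs −0.69 against control mAMs and −0.56 against RXR-deficient mAMs. Between the groups of mAMs its median is −0.26.

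Against RXR-deficient mAMs, 47 of the 92 genes passed in ImmAMs, 19 as higher and 28 as lower (51.1%, beside 37.9% of all genes). The rule for named genes gave the same 8 genes as in the comparison with control mAMs, which shares the ImmAM libraries. *Anpep* (log2 3.79), *Ephx1* (2.77), *Gpx3* (2.51) and *Bach2* (2.07) were higher, with p-adj from 7.07e-10 to 0.000814, and *Maff* (−1.37), *Blvra* (−1.30), *Gsto1* (−1.17) and *Taldo1* (−0.95) were lower. *Mafg* was higher as well (log2 0.92, SE 0.135, p-adj = 0.000147). *Keap1* (0.15, p-adj = 0.327), *Bach1* (−0.03, p-adj = 0.755), *Gss* (0.22, p-adj = 0.154), *Gpx4* (−0.17, p-adj = 0.316) and *Cybb* (−0.17, p-adj = 0.318) did not pass.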

How the data were processed

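RNA of sorted AMs was made into NEBNext Ultra II Directional libraries and sequenced as single-end reads of 60 bases, per the methods. The sample labels name another sequencer than the methods do, and the series text names digested lung where the methods name bronchoalveolar lavage. The authors trimmed reads with Cutadapt, dropped reads under 30 bases, mapped to the GRCm38 transcriptome (release 99), estimated expected counts with RSEM (1.3.1 in the submitters' processing notes), scaled libraries by TMM in limma and kept genes at 1 CPM in at least 3 samples. The deposited values are CPM per gene and library, and whether reads were counted by strand is not given in the sources used here. Each value is the reads of a gene, with 0.5 added, multiplied by a step of its library, from which whole reads were recovered for 100% of values (tolerance 0.01). TMM scaling sets most genes level between libraries, so all changes are relative.

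Log2 of the deposited CPM, with no further pseudocount, was fitted in limma 3.58.1 (R 4.3.3; trended eBayes) with 3 group means over 10 libraries and 12889 genes, two-sided, with Benjamini-Hochberg adjustment (p-adj) over all genes and a threshold of 0.05. The study's legends and series text call the libraries separate mice or biological replicates. Reads of both sex-linked genes in every library mean that the number of mice behind each is not known, so p-values cover the spread between libraries, which may be technical in part. The fit was repeated with all 11 libraries, with 0.1 or 1 added as a pseudocount, without the filter or with one at 5 CPM, with median-ratio or quantile scaling, on the 2 groups alone, without a variance trend, by edgeR 4.0.16, DESeq2 1.42.0 and limma-voom on the recovered reads, with the replicate number as a block, and without each library in turn. The fits were tested on simulated data. Positions, lengths and shared 60-base windows come from GENCODE vM21 (GRCm38).

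The members and lists were chosen with earlier results of these data known. Named were every member, the 4 largest rises and falls per comparison among other listed genes that passed and whose higher group averaged 5 CPM or more, and *Keap1*, *Bach1*, *Mafg*, *Gss*, *Gpx4* and *Cybb*.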

Additional observations from a re-analysis of the deposited data

How the results depend on the processing

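The count of members that passed was 1 in RXR-deficient against control mAMs in each fit run, 5 to 7 of 10 in ImmAMs against control mAMs and 5 to 6 in ImmAMs against RXR-deficient mAMs. A filter at 5 CPM gave 5 in both ImmAM comparisons because *Nqo1* was then not tested. The count of the 92 other genes in RXR-deficient against control mAMs went from 6 to 0 with all 11 libraries, 1 with only the 2 groups compared, 2 with no variance trend and 17 in DESeq2, was 6 in edgeR and limma-voom, and ranged from 0 to 13 as 1 library was left out. For ImmAMs it ranged from 47 to 56 and from 38 to 49 as 1 library was left out. The cause was not tested.

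The 8 same-number pairs of libraries had correlations of deviations from −0.129 to 0.059, 0 of them over 0.1. Only 1 library correlated best with its own number. Mice of different genotypes cannot be the same mouse, so only pairs of ImmAMs with RXR-deficient mAMs bear on shared mice. Their correlations were 0.059 for number 2 and −0.0333 for number 3. These values do not settle whether both populations came from the same mice. With a replicate block, the other genes that passed between the groups of mAMs numbered 0 in limma (27 with an unadjusted p under 0.05), *Gclm* passed in ImmAMs against control mAMs (−0.24, p-adj = 0.0431), and the call of every other member was the same.

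Signs turned only for differences that never passed. Between the groups of mAMs, *Hmox1* was 0.046 with all 11 libraries, 0.0217 in edgeR, 0.0223 in DESeq2 and 0.0601 with the block, *Gclm* 0.00589 with all 11 libraries and *Prdx1* 0.0435 under quantile normalization. In ImmAMs against control mAMs *Gclc* was 0.00276 under quantile normalization. With 1 library left out, *Hmox1* ranged from −0.368 to 0.189, *Prdx1* from −0.108 to 0.0522 and *Gsr* from −0.00585 to 0.0986 between the groups of mAMs, *Gclc* from −0.0573 to 0.0231 in ImmAMs against control mAMs and *Gclm* from −0.117 to 0.0877 in ImmAMs against RXR-deficient mAMs. Under quantile normalization *Srxn1* did not pass in ImmAMs against RXR-deficient mAMs (−0.21, p-adj = 0.0503) and *Nfe2l2* passed (0.21, p-adj = 0.0303). All other calls of members held in each of these alternatives, except that *Srxn1* lost its call in 4 of the 10 fits without 1 library, as given in the report. A depth of 5 to 14 reads limits *Nqo1* in ImmAMs.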

Other observations

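*Hspa1a* and *Hspa1b*, the inducible heat shock genes that also rise during tissue handling, were looked at beside *Hmox1* after its scatter among mAMs had been seen. *Hspa1b* was at 24.0, 34.4, 43.9 and 48.8 CPM in control mAMs, 35.5, 78.6, 37.6 and 69.2 CPM in RXR-deficient mAMs (replicate 4 included) and 27.8 to 32.8 CPM in ImmAMs. The 3 libraries with the highest *Hmox1*, which were RXR-deficient mAM replicates 2 and 4 and control mAM replicate 4, were also the 3 with the highest *Hspa1b* and the highest *Hspa1a*. These genes are near-identical copies, so the split of reads between them is uncertain. Summed haemoglobin genes, a sign of red cells and of heme brought in with them, were at 2.95 to 9.55 CPM in control mAMs, 0.531 to 2.27 CPM in RXR-deficient mAMs (replicate 4 included) and 1.41 to 2.65 CPM in ImmAMs. The part of either gene group in the scatter of *Hmox1* was not tested.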
